A study of Mus musculus with 36 samples.

Results

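Ank2, Ank3, Map2, Map1b, Ryr2, Ryr3 and Plxna4 are 7 large genes whose transcripts are abundant in neurons, out of 24060 gene symbols counted in mouse hippocampus. They were followed library by library beside Malat1, an abundant long non-coding RNA that stays in the nucleus. The genes were selected on RNA levels measured in these same libraries, so their RNA changes are given as descriptions with standard errors and are not evidence independent of that choice. All 7 passed the filter on low counts that left 14405 genes.

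The study compared RNA and the binding of the histone variant H2A.Z in hippocampus of C57BL/6J mice that were fear conditioned or naive, at 15.5 months (old) or 2.5 months (young). The RNA groups were old conditioned, old naive, young conditioned and young naive, with 3 libraries each. Conditioned mice had one 5-minute session with foot shocks of 0.5 mA lasting 2 seconds each, and their brains were frozen 30 minutes after training. What naive mice went through, and whether the 3 libraries of a group came from separate animals, was not given in the sources used here, so the errors measure the spread between libraries. The RNA libraries held 9410843 to 13350561 counts and detected 17017 to 17436 genes. The immediate-early genes Fosb and Dusp1, which neurons induce within minutes of activity, were higher in conditioned than naive mice at both ages, by 1.06 and 1.05 log2 units in old mice and by 1.19 and 1.10 in young mice (adjusted p = 0.0115 for both genes in old mice and 0.00492 for both in young mice, edgeR quasi-likelihood test).

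The 7 genes belong to 4 families of neuronal cell biology. Ankyrins tie membrane proteins to the spectrin skeleton beneath the membrane: ankyrin-G, from Ank3, organises the axon initial segment, where action potentials start, and ankyrin-B, from Ank2, serves the axon and its transport. MAP2 binds microtubules in dendrites and is a standard dendritic marker, and MAP1B binds them mainly in growing axons. Ryanodine receptors release calcium from the endoplasmic reticulum, RYR2 being the main form in heart and abundant in brain, and RYR3 a form found in hippocampus. Plexin-A4, from Plxna4, is a receptor that passes semaphorin signals to the growth cone.

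The shared feature in the genome was length. In RefSeq on GRCm38.p6, Ryr3 spanned 586 kb (chr2:112631354-113217405), Ank2 579 kb (chr3:126921607-127500347), Ryr2 554 kb (chr13:11553099-12106945) and Ank3 494 kb (chr10:69533486-70027436). Plxna4 spanned 444 kb (chr6:32144543-32588192), Map2 267 kb (chr1:66175202-66442583) and Map1b 95.1 kb (chr13:99421464-99516602). Of the 13589 tested genes with a span in that annotation, 6 of the 7 lay in the longest decile, which ran from 145 to 2390 kb, and Map1b lay in the decile next to it. Malat1 spanned 6.98 kb.

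H2A.Z replaces histone H2A in some nucleosomes and is best known beside the start sites of genes. Consensus H2A.Z peaks named for the gene in the authors' table lay within 1000 bp of the start of 4 of the 7 genes, on mm10. They were chr1:66174872-66175760 at Map2, chr13:99515850-99517081 at Map1b, chr13:12105781-12107187 at Ryr2 and chr6:32586965-32588677 at Plxna4. The RefSeq promoter table, on GRCm38.p6, held entries for 4 of the 7 genes, Map2, Map1b, Ryr2 and Ank2. The bases just before the start are shown for Map2, Map1b and Ryr2, the genes with both an entry and a promoter peak that the authors' table names for them, because the H2A.Z values of these peaks are given further on. The 4 entries of Ank2 are not shown, since the table names no promoter peak for that gene. Capitals mark the GC box, GGGCGG or its reverse complement CCGCCC, to which SP-family factors bind. The first is chr1:66175079-66175201 on the plus strand, the second chr13:99516603-99516852 and the third chr13:12106946-12107195, both on the minus strand.
Map2: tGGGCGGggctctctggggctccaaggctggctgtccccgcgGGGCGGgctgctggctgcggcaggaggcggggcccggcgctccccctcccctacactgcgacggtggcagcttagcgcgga
Map1b: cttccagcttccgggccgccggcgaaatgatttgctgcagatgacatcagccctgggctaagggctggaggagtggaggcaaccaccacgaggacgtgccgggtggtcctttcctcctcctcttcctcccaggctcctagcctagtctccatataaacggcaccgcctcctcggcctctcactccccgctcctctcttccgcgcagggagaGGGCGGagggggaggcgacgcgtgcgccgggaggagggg
Ryr2: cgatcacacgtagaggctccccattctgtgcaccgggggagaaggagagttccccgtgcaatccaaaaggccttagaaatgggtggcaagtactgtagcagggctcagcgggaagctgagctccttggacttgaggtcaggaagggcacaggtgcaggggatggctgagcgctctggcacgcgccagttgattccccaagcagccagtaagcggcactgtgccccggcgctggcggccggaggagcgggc

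The Map2 stretch is 123 bases long, because it stops where the longest RefSeq transcript begins, and holds 2 GC boxes. The full 250 bases before the start site in the promoter table held 5 GC boxes and 34 CpG dinucleotides at Map2, 1 GC box and 19 CpGs at Map1b, and 0 GC boxes and 14 CpGs at Ryr2. At least 1 GC box stood in 32.7% of 32851 promoter windows of the same length, whose median was 6 CpGs. Map2 had more CpGs than 96.5% of them, Map1b more than 80.3% and Ryr2 more than 70.6%. The cyclic AMP response element TGACGTCA, which reads the same on both strands, was in none of the 3 windows and in 1.55% of all windows.

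RNA levels are given in CPM, the counts of a gene per 1000000 counts of the library after scaling by effective library size; transcript lengths were not in the files, so levels are compared within a gene and not between genes. The lowest of the 4 group means was that of old conditioned mice for all 7 genes. In bulk tissue, fewer cells of a type and less RNA per cell cannot be told apart.

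Among the ankyrins, Ank3 stood at 509.8, 498.3 and 482.3 CPM in the old conditioned libraries and at 581.4, 557.0 and 566.6 CPM in the old naive ones. In young mice it stood at 540.4, 549.4 and 577.4 CPM after conditioning and at 572.3, 580.0 and 615.7 CPM in naive mice. All 3 old conditioned libraries lay below the other 9, which overlapped from group to group. Conditioned minus naive, the log2 change of Ank3 was -0.19 (SE 0.0526) in old mice and -0.08 (SE 0.0525) in young mice.

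Ank2 had 805.6, 746.9 and 770.9 CPM in old conditioned mice, against 896.3, 828.0 and 876.6 CPM in old naive mice. It had 805.5, 792.1 and 846.0 CPM in young conditioned mice, against 852.3, 891.8 and 887.0 CPM in young naive mice. The conditioned libraries lay below the naive ones at both ages, with log2 changes of -0.16 (SE 0.0539) in old and -0.11 (SE 0.0539) in young mice. Old and young conditioned libraries overlapped, as did the naive ones.

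Among the microtubule-associated proteins, Map2 stood at 1015, 940.3 and 956.2 CPM in old conditioned mice and at 1173, 1125 and 1083 CPM in old naive mice. The young values were 1029, 1043 and 1120 CPM in conditioned and 1101, 1025 and 1049 CPM in naive mice, overlapping throughout. Old conditioned libraries were again below all 9 others, and old naive mice had the highest mean. The log2 change with training was -0.22 (SE 0.0563) in old mice and 0.01 (SE 0.0563) in young mice. The difference of these changes, the interaction, was -0.22 (SE 0.0796), the most negative of the 7.

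Map1b, the most counted of the 7, had 2623, 2520 and 2469 CPM in old conditioned mice, against 2967, 2795 and 3017 CPM in old naive mice. In young mice it had 2701, 2623 and 2825 CPM after conditioning, against 2856, 2557 and 2939 CPM in naive mice. Old conditioned and old naive libraries were separate, while the young groups overlapped and a young naive library (2557 CPM) lay inside the old conditioned range. Its training change was -0.21 (SE 0.0582) in old and -0.04 (SE 0.0582) in young mice.

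Among the calcium release channels, Ryr2 stood at 634.6, 710.6 and 695.8 CPM in old conditioned mice and at 794.9, 767.7 and 924.7 CPM in old naive mice. It stood at 784.2, 728.5 and 832.3 CPM in young conditioned mice and at 884.9, 862.2 and 885.2 CPM in young naive mice. Conditioned libraries were below naive ones at both ages, and old conditioned libraries below all others. The log2 change with training was -0.28 (SE 0.0724) in old mice, the lowest of the 7, and -0.17 (SE 0.0723) in young mice. Old naive library 71 held the highest Ryr2 value, and without it the training change in old mice was -0.20.

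The group order of Ryr3 followed age first and was not that of any of the other 6, whose orders also differed among themselves. It had 152.3, 174.0 and 183.6 CPM in old conditioned mice and 183.2, 177.6 and 216.8 CPM in old naive mice, which overlap. It had 201.1, 203.7 and 250.0 CPM in young conditioned mice and 270.0, 201.6 and 260.2 CPM in young naive mice, which overlap too. Each group overlapped the next in the order of means, old conditioned, old naive, young conditioned, young naive. Old minus young, the log2 change was -0.36 (SE 0.113) in conditioned mice, -0.34 (SE 0.113) in naive mice and -0.35 (SE 0.080) averaged over both. That averaged change had an adjusted p of 0.0686 in edgeR's quasi-likelihood test. The adjusted p was 0.046 without old naive library 71, 0.0117 without young naive library 81 and 0.00374 in DESeq2. In edgeR it was above 0.0686 without any other single library, and 0.0933 with the log2 level of Malat1 as a covariate.

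Plxna4 had 440.8, 447.9 and 436.0 CPM in old conditioned mice, against 517.9, 483.5 and 538.8 CPM in old naive mice. It had 489.2, 455.7 and 496.5 CPM in young conditioned mice, against 508.7, 509.8 and 491.4 CPM in young naive mice. The old conditioned libraries lay closer together than those of any other group and below the other 9. The training change was -0.22 (SE 0.0553) in old and -0.07 (SE 0.0553) in young mice.

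**Figure D1:**
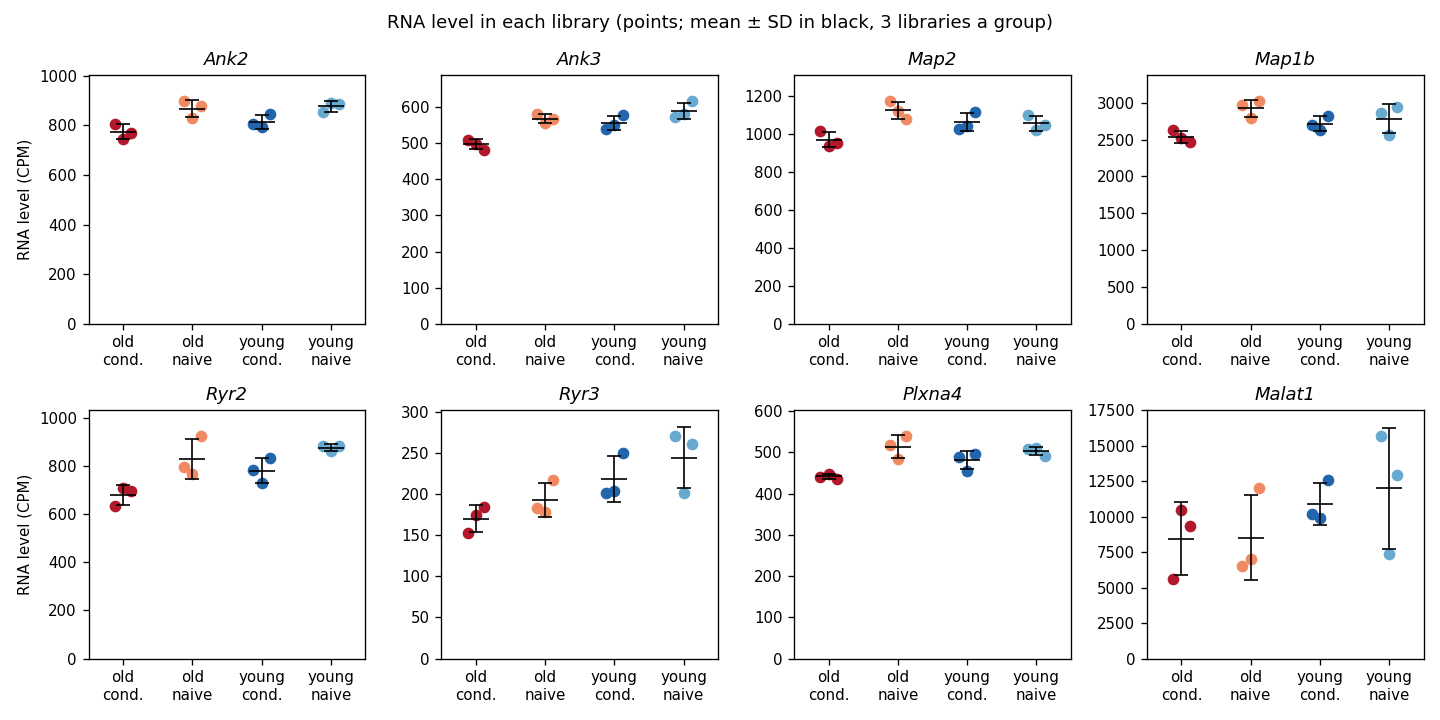
RNA level in CPM (vertical axes, from 0) of the 7 genes and Malat1 in the 12 libraries, with 3 points and a mean ± SD for each of old conditioned, old naive, young conditioned and young naive mice. The old conditioned libraries of Ank3, Map2, Ryr2 and Plxna4 lie below all other libraries, while those of Ryr3 and Malat1 overlap the old naive ones.

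Summed over the 7 genes, the RNA level was 5994 to 6181 CPM in old conditioned libraries, 6734 to 7224 CPM in old naive ones, 6395 to 6947 CPM in young conditioned ones and 6626 to 7127 CPM in young naive ones. The median training change of the 7 genes in old mice was -0.21 on the log2 scale, against -0.002 over all genes tested. For 6 of the 7, all but Ryr3, every old conditioned library was below every old naive library, as for 6.22% of all genes tested. Without any 1 library, that number was 6 or 7. No member passed an adjusted p of 0.05 in edgeR's quasi-likelihood test, where 2 genes did (0.0139%), or in DESeq2; the unadjusted p was under 0.05 for 6. Since the genes were chosen with these levels known, nothing is read from these counts. The share of all genes with an unadjusted p under 0.05 is not given here. Counts at that threshold, here and below, therefore have no background beside them, and nothing is read from them.

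In young mice the median training change of the 7 genes was -0.08, against -0.006 over all genes. Only Ank2 and Ryr2 had every conditioned library below every naive one (5.64% of all genes), and the number reached 4 without young conditioned library 77 or without young naive library 81. None of the 7 was called by edgeR (0.0278% of genes) or DESeq2, and 1 had an unadjusted p under 0.05. The interaction was negative for all 7, with a median of -0.12 against 0.001 over all genes. No gene was called for the interaction (0.0% of 14405) in edgeR and 1 in DESeq2, none of the 7 in either; Map2 alone of the 7 had an unadjusted p under 0.05. No difference between the ages in the training change of the 7 genes passed the test.

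Old minus young, the median change of the 7 genes was -0.13 in conditioned mice (all genes -0.007) and -0.02 in naive mice (all genes -0.006). These 2 age comparisons and the 2 training comparisons share libraries. In conditioned mice Ank3, Map2, Ryr2, Ryr3 and Plxna4 had every old library below every young one, as had 11.8% of all genes; without old conditioned library 61 all 7 did. In naive mice none did (6.35% of all genes), although 2 did without old naive library 71 and 1 without old naive library 67 or young naive library 81. There Map2, Map1b and Plxna4 had positive changes of 0.09, 0.07 and 0.03. EdgeR's test called none of the 7 in conditioned mice (0.0347% of genes) or naive mice (0.0555%), with unadjusted p under 0.05 for 5 and 1 of them. DESeq2 called Ryr3 in conditioned mice, with an adjusted p of 0.0497, and no other. Averaged over conditions, edgeR called none of the 7 (0.375% of genes), 3 had an unadjusted p under 0.05, and none had every old library below every young one (0.569% of genes). DESeq2 called Ryr3 there too.

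**Figure D2:**
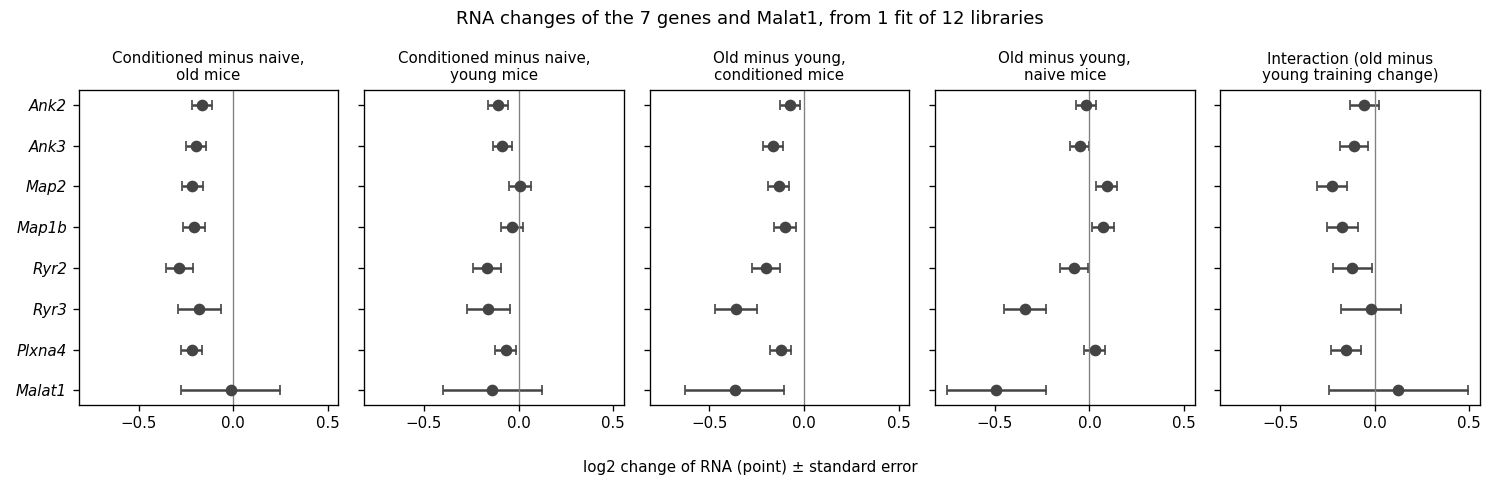
Log2 change of RNA (horizontal axes, points with standard error bars) of the 7 genes and Malat1 for training in old and in young mice, for age in conditioned and in naive mice, and for the interaction. In old mice the 7 training changes run from -0.28 (Ryr2) to -0.16 (Ank2), and the bar of Malat1 spans 0.

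Malat1 had a coefficient of variation of 13.7 to 35.3% within the groups, against 1.36 to 15.2% for the 7 genes. It stood at 5572, 10454 and 9310 CPM in old conditioned mice, 6552, 7030 and 11985 CPM in old naive mice, 10179, 9883 and 12612 CPM in young conditioned mice and 15660, 7352 and 12947 CPM in young naive mice. Every pair of groups overlapped, and the training change in old mice was -0.01 (SE 0.261). The mean of the 7 genes, each centred on its own average, was -0.16, -0.15 and -0.15 log2 units in the old conditioned libraries, although Malat1 was lowest of all 12 in the first and in the middle of the order in the other two. In old naive mice that mean was 0.06, -0.01 and 0.11, in young conditioned mice -0.02, -0.05 and 0.09, and in young naive mice 0.12, 0.03 and 0.13.

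Over the 12 libraries, which share groups and tissue composition, Pearson's r between that mean and the log2 level of Malat1 was 0.525 and Spearman's rho 0.629. The value rested in part on the extremes: without young naive library 79 and old conditioned library 61, the libraries farthest from the Malat1 median, r was 0.225. Within the 6 old libraries r was 0.202 and within the 6 young ones 0.678. After subtracting group means from both, it was 0.678 over the 12 libraries, higher than with the group means left in. The genes differed from each other in this. Pearson's r with Malat1 was 0.856 for Ryr3 (0.716 without the same libraries, 0.755 in old and 0.892 in young mice) and 0.593 for Ryr2 (0.278 without them, 0.543 in old and 0.359 in young mice). After subtracting group means it was 0.912 for Ryr3 and 0.772 for Ryr2. For Map1b r was 0.303, made up of -0.009 in old and 0.898 in young mice, and for Map2 it was 0.002, made up of -0.372 in old and 0.754 in young mice. It was 0.283 for Ank3 (-0.131 in old and 0.274 in young mice), 0.283 for Plxna4 (0.221 and 0.134) and 0.043 for Ank2 (-0.187 and 0.001). After subtracting group means it was 0.490 for Map1b, 0.333 for Plxna4, -0.055 for Ank3, -0.134 for Map2 and -0.305 for Ank2.

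With the log2 level of Malat1 as a covariate in the fit, the median training change of the 7 genes in old mice was -0.20, against -0.21 without it. The age change of Ryr3 averaged over conditions was -0.19 (SE 0.0501) with the covariate, against -0.35 without, and that of Ryr2 was -0.07, against -0.14. The 12 listed nuclear-retained RNAs that were counted, Malat1 among them, summed to 8211 to 14139 CPM in old conditioned, 9292 to 15887 CPM in old naive, 13806 to 17360 CPM in young conditioned and 10269 to 21737 CPM in young naive libraries.

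**Figure D3:**
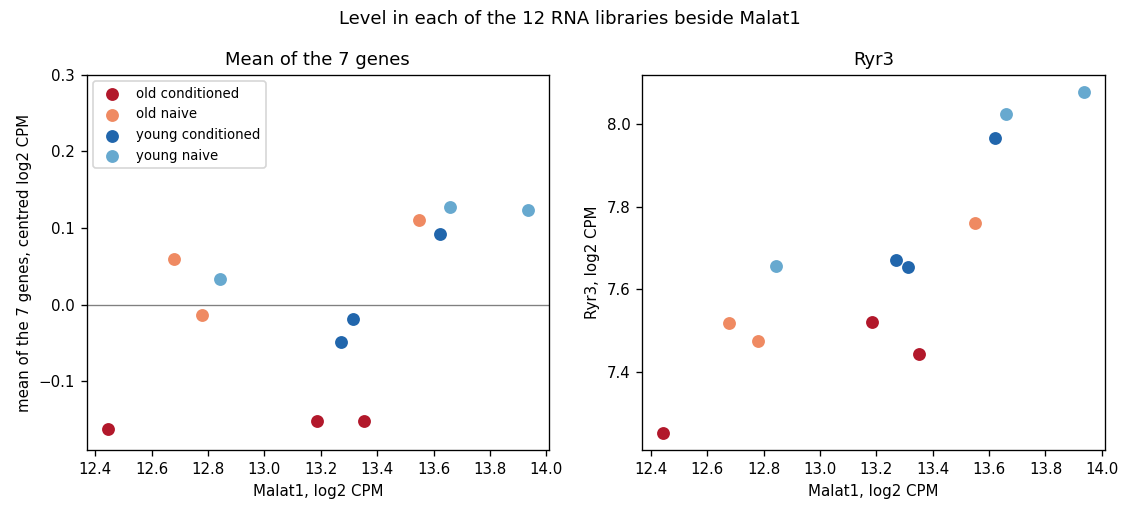
Level in each of the 12 RNA libraries against the log2 CPM of Malat1 (horizontal axes), for the mean of the 7 genes after centring (left) and for Ryr3 (right), coloured by group. The 3 old conditioned libraries lie near -0.15 in the left panel whatever their Malat1 level, while Ryr3 follows Malat1 (r = 0.856).

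Other cell types were measured beside these values. The 18 choroid plexus markers summed to 246 to 412 CPM in old conditioned libraries, 430 to 3051 CPM in old naive, 248 to 3659 CPM in young conditioned and 499 to 4870 CPM in young naive libraries. Of these markers Kcne2 and Slc4a5 were at 0 in some libraries. All 18 had a negative training change in old mice, with a median of -2.44. For 12 of them every old conditioned library was below every old naive one, as for 6.22% of all genes tested. In young mice 17 had a negative change, with a median of -0.395, and 0 were lower without overlap (5.64% of all genes). EdgeR called none of the 18 at either age, with unadjusted p under 0.05 for 16 in old and 0 in young mice. The 17 oligodendrocyte markers summed to 2829 to 3132 CPM in old conditioned and 3137 to 3429 CPM in old naive libraries. The young sums were 2699 to 3612 CPM after conditioning and 3108 to 4251 CPM in naive mice. Their training change was negative for 16 in old mice (median -0.12) and for all 17 in young mice (median -0.27). Unadjusted p in edgeR was under 0.05 for 1 and 8 of them, and none was called at either age. With age, the 15 microglia markers had positive changes in all 3 comparisons, 15 of 15 each, with medians of 0.30 averaged over conditions, 0.34 in conditioned and 0.26 in naive mice. EdgeR's test called 4 of them averaged over conditions, 0 in conditioned mice (11 with an unadjusted p under 0.05) and 2 in naive mice. Of all genes tested it called 0.375%, 0.0347% and 0.0555% in the same comparisons. The microglia markers summed to 477 to 516 CPM in old conditioned and 505 to 521 CPM in old naive libraries, against 409 to 422 CPM in young conditioned and 393 to 448 CPM in young naive libraries, and none was at 0 in any library. The part of any of these lists in the levels of the 7 genes was not tested. The 20 neuron markers, all detected in every library, summed to 13473 to 14099 CPM in old conditioned, 13262 to 13922 CPM in old naive, 12594 to 13549 CPM in young conditioned and 11683 to 12656 CPM in young naive libraries. The 20 hippocampal subfield markers counted were detected in every library, at 1459 to 1510, 1458 to 1533, 1359 to 1494 and 1381 to 1400 CPM in the same order of groups. Averaged as log2 CPM, the neuron markers were at 8.30, 8.22, 8.22 and 8.16 and the subfield markers at 5.41, 5.45, 5.44 and 5.38 in that order. The part of these 2 lists in the levels of the 7 genes was not tested either.

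The training change in old mice also varied with gene span. Over deciles of the 13589 genes by span, its median was 0.02 in the shortest decile (up to 4.38 kb) and -0.05 in the longest. The other comparisons of 2 groups also had a lower median in the longest decile than in the shortest. From shortest to longest these medians were 0.008 and -0.035 for training in young mice. For age they were 0.059 and -0.061 in conditioned mice and 0.043 and -0.043 in naive mice. The share of genes whose old conditioned libraries all lay below the old naive ones was 3.97% in the shortest decile and 11.8% in the longest. The 7 genes, with changes of -0.28 to -0.16, lay below the median of their deciles. They were chosen on RNA levels of these libraries, so nothing is read from that position, nor from their interaction given below. For 87 other large neuronal transcripts, from a list chosen with earlier results of these data known, the median training change was -0.10 in both old and young mice. Of these 87, 75 had negative changes in old mice, 28 without overlap (6.22% of all genes). In young mice 78 had negative changes, 21 without overlap (5.64% of all genes). For 50 short abundant neuronal transcripts the medians were 0.07 in old and 0.08 in young mice, with 38 and 39 of 50 positive. The median interaction was 0.005 for the other large transcripts and -0.01 for the short ones, against -0.12 for the 7 genes. None of either list passed an adjusted p of 0.05 in edgeR in any comparison; 26 of the large and 8 of the short had an unadjusted p under 0.05 for training in old mice.

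**Figure D4:**
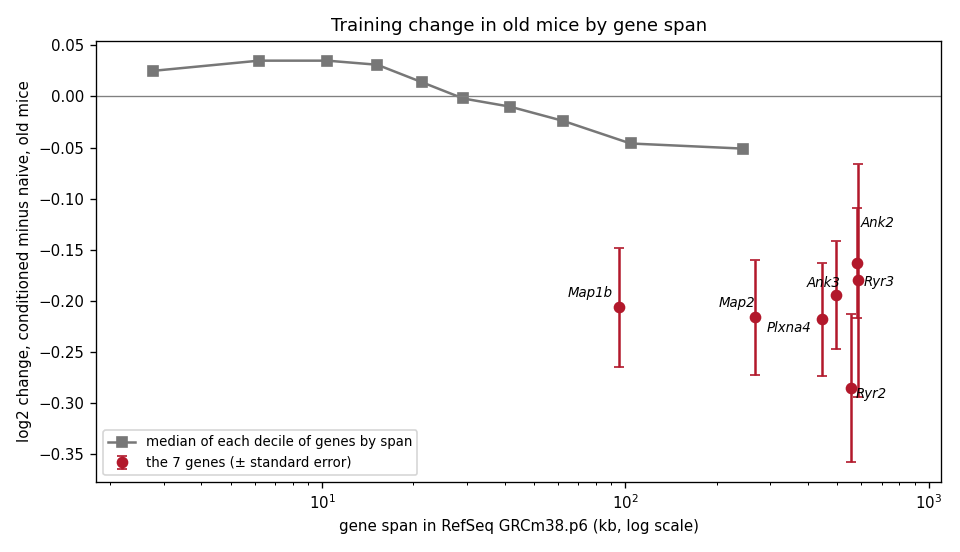
Log2 change of RNA with training in old mice (vertical axis) against gene span in kb (horizontal axis, log scale), as the median of each decile of 13589 genes (squares) and for the 7 genes with standard errors (circles). The medians fall to -0.05 in the longest decile, and the 7 genes lie at -0.16 or below.

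The correlations of the 7 genes across libraries are descriptions, since the genes were chosen on RNA levels of these same libraries. Over their 21 pairs, Pearson's r of log2 CPM over the 12 libraries ran from 0.352 to 0.899 with a median of 0.737, and after subtracting group means from -0.25 to 0.761 with a median of 0.39. Among 10417 other genes, the pattern most like the mean of the 7 was that of Lrrc7, a postsynaptic density scaffold (r = 0.931), followed by Kmt2c, a histone H3 lysine 4 methyltransferase (r = 0.927), Cacna1e, an R-type calcium channel (r = 0.920), Bptf, a subunit of the NURF chromatin remodeller (r = 0.918), and Zfpm2, a GATA cofactor (r = 0.916). Pclo, the presynaptic scaffold piccolo, Lrba, Cacna1c, an L-type calcium channel, and Kmt2a, another methyltransferase, were also among the first 10, down to r = 0.896. The gene spans of those named ran from 78.0 kb (Kmt2a) to 610 kb (Cacna1c). The lowest r were those of Spryd3 (-0.897), Spock2, Wrnip1, Zmynd19 and Syngr1 (-0.876), with spans of 11.1 to 28.9 kb. The middle 90% of genes lay between -0.637 and 0.667, and Malat1 was above 88.5% of them.

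Single genes had different nearest patterns. Ank2 was nearest to Amer2 (r = 0.911), Ank3 to Apc (0.904), Map1b to Peak1 (0.900), Map2 to Actr6 (0.867), Ryr2 to Vps13b (0.947), Ryr3 to Uggt2 (0.977) and Plxna4 to Ryr2 (0.899). Ank2 and Ank3 were each among the 3 nearest to the other, with r = 0.883.

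Close relatives of the 7 genes had training changes between -0.15 and 0.20 in old mice. Ank1, the erythrocyte ankyrin that is also made in brain, had 66.6 ± 5.97 CPM in old conditioned and 62.3 ± 6.91 CPM in old naive mice (SD, n = 3 each), a log2 change of 0.10 (SE 0.083). Map1a, the adult counterpart of Map1b, had 2067 ± 237 CPM in old conditioned and 2295 ± 38.1 CPM in old naive mice, a change of -0.15 (SE 0.0708). The change was 0.04 (SE 0.0559) for Mapt, which encodes tau, -0.05 (SE 0.0557) for Map4 and 0.06 (SE 0.0718) for Map6. Ryr1, the skeletal muscle receptor, had 24.2 ± 3.8 CPM in old conditioned and 25.5 ± 8.59 CPM in old naive mice, a change of -0.07 (SE 0.184). The changes of Plxna1, Plxna2 and Plxna3 were 0.02, -0.10 and 0.20 with standard errors of 0.0699, 0.0711 and 0.0939. Of these 9 relatives, none was called by edgeR in any of the 6 comparisons.

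Few partners of the 4 families were called. Among 32 tested ankyrin, spectrin and axon initial segment partners, Nfasc fell with age averaged over conditions. This gene, which encodes neurofascin, an adhesion molecule that ankyrin-G holds at the initial segment, had 322 ± 5.59 and 339 ± 8.12 CPM in old conditioned and old naive mice, against 353 ± 11 and 402 ± 7.53 CPM in young conditioned and young naive mice (log2 change -0.19, SE 0.0349, adjusted p = 0.0283 in edgeR). Of 42 tested microtubule-associated proteins and tubulins, only Dcx was called by edgeR for age averaged over conditions (0.375% of all genes). In that comparison 6 of the 42 had an unadjusted p under 0.05. Dcx, which encodes doublecortin, a marker of immature neurons, had 22.0 ± 1.74 and 22.1 ± 4.02 CPM in old conditioned and old naive mice. It had 33.5 ± 5.79 and 33.1 ± 3.34 CPM in young conditioned and young naive mice (log2 change -0.59, SE 0.10, adjusted p = 0.0208 in edgeR).

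Of 40 tested plexins, neuropilins, semaphorins and their effectors, only Dpysl3, a collapsin response mediator, was called by edgeR for age averaged over conditions (0.375% of all genes). In that comparison 6 of the 40 had an unadjusted p under 0.05. Dpysl3 had 69.3 ± 2.37 and 62.0 ± 3.54 CPM in old conditioned and old naive mice. It had 77.0 ± 4.72 and 79.3 ± 3.34 CPM in young conditioned and young naive mice (log2 change -0.25, SE 0.0495, adjusted p = 0.0382 in edgeR). None of 31 tested calcium release and store genes was called with age (11 with an unadjusted p under 0.05); Camk2a, the calcium-dependent kinase subunit, had the smallest p, with a log2 change of 0.16 (SE 0.0394). In the training comparisons and the interaction no partner of the 4 lists was called by edgeR. Their median training changes in old mice were -0.001 for the ankyrin partners, 0.05 for the microtubule genes, -0.02 for the calcium genes and 0.03 for the plexin genes. The median of the 7 genes was -0.21, but they were chosen on RNA levels of these libraries, so nothing is read from the contrast. Unadjusted p in edgeR was under 0.05 for 4, 11, 2 and 6 of the partners, in that order of lists, for training in old mice. Those with the smallest included Nrcam (-0.16, SE 0.0599), Kif5b (-0.18, SE 0.0564), Tubb3 (0.23, SE 0.0695) and Sema5a (-0.32, SE 0.111).

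H2A.Z at the promoters of Map2, Map1b, Ryr2 and Plxna4 was measured in 12 immunoprecipitated libraries, 3 per group. A promoter peak named for the gene was present for 75.1% of tested genes and for 4 of the 7, and there was none for Malat1. The table names the gene by its own annotation. A peak at chr3:127498219-127499693, named for Larp7 at 54393 bp, covered a RefSeq start site of Ank2 (127499115). Another at chr2:113216430-113217591, named for Tmco5b at -68721 bp, covered the high-coordinate end of the Ryr3 span. The RefSeq promoter entries held none for Ryr3, so this end was not labelled as the start or the far end of the gene. Counting both, each of which overlapped regions of all 4 histone marks in the table, 6 of the 7 genes had a peak at a start site or over an end of the span. No peak lay within the span of Ank3, and the nearest one in the table lay 69.1 kb outside it.

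Within a group, the log2 levels can be ranked among the 12204 promoter peaks, using the authors' mean levels. Plxna4 was above 97.7% of them in old conditioned mice, 93.6% in old naive, 96.9% in young conditioned and 90.6% in young naive mice. Ryr2 was above 89.4%, 68.7%, 80.9% and 58.9% in the same groups. Map2 lay above 59.0%, 56.8%, 54.9% and 52.1%, and Map1b above 56.4%, 39.4%, 55.5% and 51.0%. The peak was called in 2 or 3 of the 3 libraries of each group at all 4 promoters. All 4 peaks overlapped regions of H3K4me3, a mark of active starts (93.8% of promoter peaks), and of H3K4me1 (86.7%). Those of Ryr2 and Plxna4 also overlapped H3K27ac, an active mark (66.8%), and H3K27me3, the Polycomb mark (34.8%), and those of Map2 and Map1b overlapped neither.

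In old mice, the authors' deposited table gave log2 folds of H2A.Z, conditioned over naive, of -0.97 at Map2, -0.55 at Map1b, -0.38 at Ryr2 and -0.61 at Plxna4, against a median of -1.03 over all promoter peaks. In young mice the authors' deposited table gave -0.56 (Map2), -0.53 (Map1b), -0.04 (Ryr2) and -0.03 (Plxna4), against a median of -0.63. The folds at Ryr2 were less negative than those of most promoters, with 94.3% of promoter peaks lower in old and 90.7% in young mice; at Plxna4 the shares were 86.9% and 91.0%. At Map1b they were 89.2% in old and 58.0% in young mice. Map2 lay near the middle, with 56.0% and 55.3% lower. None of the 4 passed an FDR of 0.05 in the authors' deposited table in either comparison, where 15.9% of promoter peaks did in old and 14.6% in young mice. The authors' p was under 0.05 for none of the 4 in either. The standard errors implied by the authors' p under a normal distribution were 0.313 to 0.653 in old mice and 0.421 to 0.528 in young mice.

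Old over young, the folds in naive mice in the authors' deposited table were 0.59 at Map2, 0.12 at Map1b, 0.73 at Ryr2 and 0.77 at Plxna4, against a median of 0.44. In conditioned mice they were 0.18, 0.10, 0.39 and 0.19 in that order of genes, against a median of 0.10 in the authors' deposited table. No promoter peak passed an FDR of 0.05 there in either age comparison (0.0%), and of the 4 only Plxna4 in naive mice had an unadjusted p under 0.05, of 0.0204 in the authors' deposited table. The peak at the start of Ank2 had training folds of -1.05 in old and -0.67 in young mice in the authors' deposited table (FDR 0.0539 and 0.352). The peak over the high-coordinate end of the Ryr3 span had -0.81 and -0.35 there (FDR 0.208 and 0.706).

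**Figure D5:**
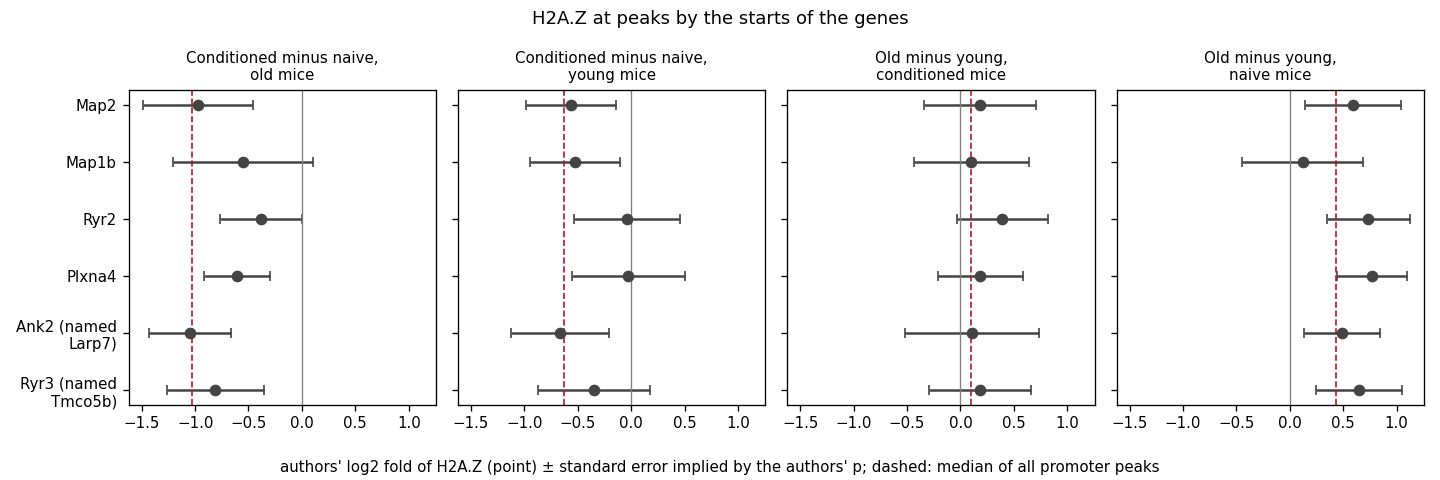
Log2 folds of H2A.Z from the authors' deposited table (horizontal axes, points with the standard error implied by the authors' p) at the promoter peaks of Map2, Map1b, Ryr2 and Plxna4 and at the peaks over the Ank2 start and the high-coordinate end of the Ryr3 span, for training in old and young mice and for age in conditioned and naive mice. Dashed lines mark the median of 12204 promoter peaks; in young mice Ryr2 (-0.04) and Plxna4 (-0.03) lie to the right of the median of -0.63.

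RNA and H2A.Z did not run in 1 order among the genes with a peak. In old mice Ryr2 had the lowest training change of RNA (-0.28) with the least negative H2A.Z fold of the 4 (-0.38), and Map2 had an RNA change of -0.22 with the most negative fold (-0.97). With 4 genes no relation was tested.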

How the data were processed

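For RNA, the authors deposited unnormalized counts (whole numbers) by gene symbol, a file per library, and, for H2A.Z, 1 table of consensus H2A.Z peaks on mm10. That table holds the authors' log2 folds and log2 mean levels, p-values and FDRs (as DiffBind gives them), distances in bp and the numbers of libraries in which a peak was called; these other columns were used as deposited. Per the submitters' processing notes the tools included TopHat, HTSeq 0.6.1p2, Bowtie2 2.2.1, MACS2 2.0.10, DiffBind 1.12.2 and edgeR 3.8.6; the build and strand setting behind the RNA counts were not given in the sources used here.

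Counts were fitted in R 4.3.3 with edgeR 4.0.16 (TMM, filterByExpr, 1 quasi-likelihood fit of 4 groups, Benjamini-Hochberg over 14405 genes); log2 CPM used a prior count of 2. The fit was checked on simulated data. DESeq2 1.42.0 was an alternative. The authors' folds were turned to conditioned over naive and old over young; the table's remaining pair of groups was read as conditioned. Levels of H2A.Z were compared only within a group, since folds and differences of levels were offset by up to 0.334 log2 units. Members and gene lists were chosen with earlier results of these data known. Named beyond the 7 genes were called list genes (up to 3), otherwise up to 2 partners of smallest p, family relatives, and the genes of highest and lowest correlation. Input libraries were not analysed here. Of the genes these rules name, 2 are not reported here.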

Additional observations from a re-analysis of the deposited data

How the results depend on the processing

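Leaving out each library in turn gave 84 values per comparison for the 7 genes. The training change in old mice was negative in all 84, and the age change in conditioned mice likewise. In young training it was negative in 73 of 84, in the averaged age change in 81, in the interaction in 80 and in the age change of naive mice in 48. In comparisons of 2 groups, many of these values leave out a library of another group, which hardly moves the change. The genes were chosen on RNA levels of these same libraries, so nothing is read from these numbers of negative values. The number of genes called depended on the tool. DESeq2 called 236, 106, 34, 9, 8 and 1 genes for age averaged, age in conditioned mice, age in naive mice, training in old mice, training in young mice and the interaction, against 54, 5, 8, 2, 4 and 0. Without the filter on low counts 192 were called for age averaged, 26 for age in naive mice, 9 for training in old and 8 for training in young mice. With Malat1 as a covariate 114 and 14 were called for age averaged and in naive mice. Leaving out 1 library, the counts ran from 13 to 391, 2 to 7, 1 to 22, 0 to 8 and 0 to 16 for the first 5 comparisons. The values of 391 and 22 came without young naive library 81, the 8 and 16 without young naive library 79, and the 13 without old conditioned library 61 or 63; the cause was not tested.

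Of the 7 genes, Ryr3 was the 1 called under any alternative. For age averaged it had an adjusted p of 0.00374 in DESeq2 and 0.0123 in edgeR without the filter. In edgeR it was 0.046 without old naive library 71 and 0.0117 without young naive library 81. Leaving out any other single library raised it above the 0.0686 of the main fit, and the Malat1 covariate raised it to 0.0933. The number of members called therefore ran from 0 to 1 over the left-out libraries. Counts of members lower without overlap were an alternative chosen after seeing the data: 0 to 1 for age averaged, 0 to 2 for age in naive mice, 2 to 4 for training in young mice, 5 to 7 for age in conditioned mice and 6 to 7 for training in old mice over the left-out libraries, and 1 for age in naive mice with library totals alone. The correlation with Malat1, 0.525, was 0.225, 0.202 and 0.678 without the farthest libraries, in old and in young mice. No paired analysis was possible because no 2 RNA libraries share a number in their titles. With 3 libraries a group, the standard errors of the 7 genes between 2 groups, 0.0525 to 0.114, limit what could be called.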
